A study of Homo sapiens with 6 samples.

Results

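The genes described here encode secreted hormones and growth factors that cells are known to produce under endoplasmic reticulum (ER) or metabolic stress: GDF15, FGF21, INHBE, ADM, ADM2, STC1, STC2, ANGPTL4 and VEGFA. They are 9 of the 60683 genes in the count table, chosen by symbol for this known role by a rule that uses no measured value, though with earlier results of these libraries known. Of these, 8 had enough reads to be tested, among 15846 tested genes. RNA was taken from 143B cells, an established human osteosarcoma line, after 24 h with PBS (3 libraries) or with TPBC-PEG (3 libraries). TPBC-PEG is an agent named only by this code in the labels. The sample titles give its dose as 3 µM and the treatment protocol as 300 µM, so the dose is not settled, and the labels do not say whether cells were exposed to light. All libraries come from a single cell line in the same medium, with no second line and no second dose. The labels do not say whether the 3 libraries of a group came from separate cultures, so the p-values measure the spread between these libraries, which may be technical.

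As background, misfolded protein in the ER, amino acid shortage, haem shortage or damaged mitochondria lead to phosphorylation of the translation factor eIF2α. Most protein synthesis then slows while the transcription factor ATF4 is made, and ATF4 with CHOP (the product of DDIT3) switches on genes of amino acid supply and several secreted factors, among them GDF15, FGF21, ADM2, STC2, INHBE and VEGFA. Such factors carry the stress of a cell to other organs: GDF15 lowers appetite through the brainstem receptor GFRAL, and FGF21 adjusts fuel use through FGFR1 with the co-receptor KLB. Other members are better known as genes of hypoxia, such as ADM, VEGFA, STC1 and ANGPTL4, which respond to the hypoxia-inducible factors, and ANGPTL4 is also switched on by fatty acids through the PPAR receptors. The data hold RNA levels only; secreted protein was not measured.

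The promoters are shown because the best known stress element of this family, the C/EBP-ATF response element (CARE) bound by ATF4, was searched for in them. RefSeq promoter windows on GRCh38.p14 were matched for 6 of the 9 genes (ADM, ADM2, ANGPTL4, FGF21, GDF15 and STC2), and the 250 bases before the start of the RefSeq gene were read. The gene spans given below come from GENCODE 29, which places the start of GDF15, ADM, ANGPTL4 and STC2 farther upstream, so the windows of these 4 genes lie inside their GENCODE spans. The windows below belong to GDF15 and ADM2, whose RNA rose, to ADM, the paralog of ADM2 whose RNA fell, and to FGF21, whose RNA was next to absent. Each is written 5′ to 3′ on the gene's own strand, and capitals mark a match to the CARE core TGATGNAA, read on either strand.
GDF15, chr19:18385908-18386157, + strand: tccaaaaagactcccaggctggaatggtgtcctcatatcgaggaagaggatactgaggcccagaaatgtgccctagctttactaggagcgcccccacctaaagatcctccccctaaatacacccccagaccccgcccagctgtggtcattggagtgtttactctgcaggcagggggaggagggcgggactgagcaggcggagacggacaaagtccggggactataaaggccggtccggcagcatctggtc
ADM2, chr22:50481293-50481542, + strand: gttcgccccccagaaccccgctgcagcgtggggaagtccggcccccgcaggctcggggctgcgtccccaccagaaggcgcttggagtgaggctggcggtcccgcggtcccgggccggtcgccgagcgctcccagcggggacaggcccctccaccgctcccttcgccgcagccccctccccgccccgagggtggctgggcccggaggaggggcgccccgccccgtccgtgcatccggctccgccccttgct
ADM, chr11:10304823-10305072, + strand: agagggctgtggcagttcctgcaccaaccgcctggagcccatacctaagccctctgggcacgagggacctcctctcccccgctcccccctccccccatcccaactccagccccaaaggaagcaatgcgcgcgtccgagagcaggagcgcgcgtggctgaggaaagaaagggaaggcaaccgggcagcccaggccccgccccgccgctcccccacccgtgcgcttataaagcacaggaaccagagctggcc
FGF21, chr19:48755274-48755523, + strand: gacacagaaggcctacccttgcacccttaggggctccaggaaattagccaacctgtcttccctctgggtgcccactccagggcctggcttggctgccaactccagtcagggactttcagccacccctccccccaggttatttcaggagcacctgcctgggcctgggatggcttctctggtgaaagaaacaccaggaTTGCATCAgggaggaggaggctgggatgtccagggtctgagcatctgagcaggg

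The CARE core was found in 1 of the 6 windows, that of FGF21, as TTGCATCA on the reverse strand from 54 to 47 bases before the start. It was present in 3.14% of 35116 promoter windows of the same length. The ER stress element (CCAAT and CCACG with 9 bases of any kind between them) and the ER stress element II (ATTGG, any base, then CCACG), which were present in 0.0740% and 0.0513% of the windows, were in none of the 6. The short hypoxia response core ACGTG, present in 18.5% of the windows and overlapping none of the other matches, was found only in the ANGPTL4 window, as CACGT on the reverse strand from 234 to 230 bases before the start. A match is a run of letters and not a measured binding site, and bases outside these windows were not searched. The match in FGF21 belongs to the member with next to no RNA, and the GDF15 and ADM2 windows, whose genes rose, hold no match to the 4 patterns.

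The RNA of 5 of the 8 tested members was higher after TPBC-PEG, that of 1 was lower, and 2 did not pass the test. Among all tested genes 16.2% were called higher and 16.9% lower, 33.2% in either direction, where called means an adjusted p under 0.05. Scaling by library size alone shifted this balance to 3213 genes higher and 1971 lower. The share called higher by at least 2-fold was 1.57% of all tested genes, and 3 of the 8 tested members, GDF15, INHBE and ADM2, were in it. INHBE passed the filter on low counts only through the TPBC-PEG libraries, so it gives no support of its own in the counts of this paragraph. For 5 members every TPBC-PEG library lay above every PBS library, against 22.1% of all tested genes, and for 1 member every TPBC-PEG library lay below, against 21.4%. The median log2 fold change of the 8 tested members was 0.60, and that of all tested genes was 0.011. The members together took 0.0290 to 0.0303% of the counts in the PBS libraries and 0.0419 to 0.0464% in the TPBC-PEG libraries. In bulk RNA, more transcript in each cell and a larger share of cells that make it cannot be told apart.

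**Figure D1:**
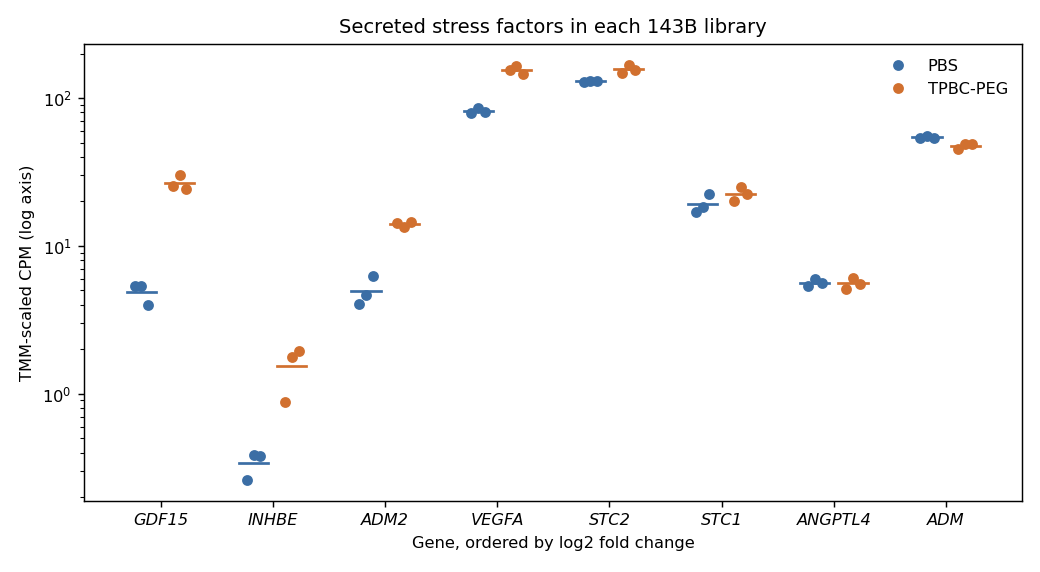
Level (TMM-scaled CPM) of the 8 tested members in each of the 3 PBS and 3 TPBC-PEG libraries, side by side on a shared log axis. Points are libraries and bars are group means. GDF15, INHBE, ADM2, VEGFA and STC2 have all TPBC-PEG points above all PBS points, ADM has all of them below, and the points of STC1 and ANGPTL4 overlap.

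**Figure D2:**
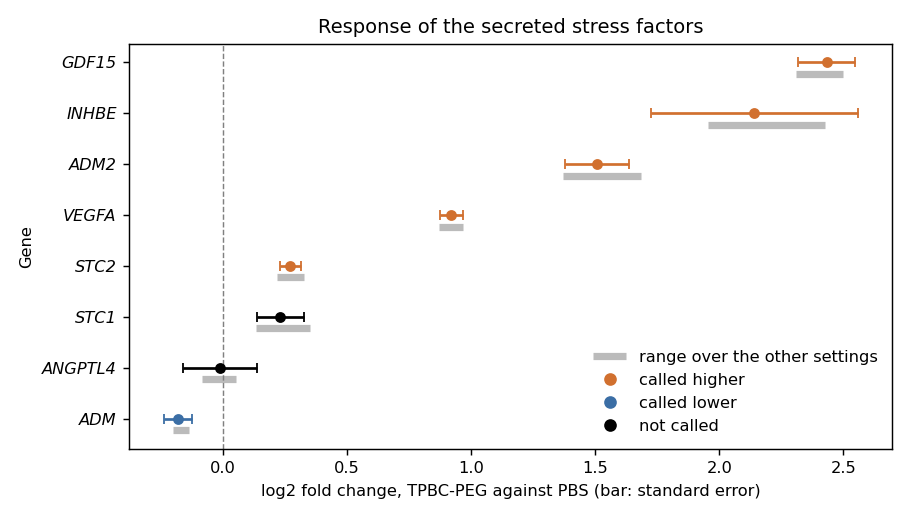
Log2 fold change of each tested member, TPBC-PEG against PBS, with its standard error from the quasi-likelihood fit as a bar. A separate bar gives the range over the other processing settings. GDF15 stands at 2.43, INHBE at 2.14 with the largest standard error of the members, and the range of ANGPTL4 lies on both sides of 0.

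GDF15 (growth differentiation factor 15, ENSG00000130513, chromosome 19, 18374731 to 18389176, plus strand, GRCh38) encodes a distant member of the TGF-β family and is a widely used marker of cell stress. Its counts were 102, 97 and 63 in the PBS libraries and 494, 625 and 384 in the TPBC-PEG libraries. Scaled to library size by the TMM method and given as CPM, these were 5.32, 5.38 and 3.97 with PBS and 25.4, 30.1 and 24.1 with TPBC-PEG. The lowest TPBC-PEG library was thus far above the highest PBS library, and the groups did not overlap. The mean rose from 4.89 ± 0.794 to 26.5 ± 3.19 CPM (SD, n = 3 each), and the fitted log2 fold change was 2.43 ± 0.11 (SE; adjusted p = 3.41e-22, edgeR quasi-likelihood test with Benjamini-Hochberg adjustment over all tested genes). GDF15 ranked 10 among all tested genes ordered by the size of the rise.

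INHBE (ENSG00000139269, chromosome 12, 57452323 to 57459280, plus strand) encodes the βE subunit of activin E, a factor made mainly by the liver that acts on fat tissue. It was scarce: 5, 7 and 6 counts with PBS and 17, 37 and 31 counts with TPBC-PEG. The PBS libraries lay below the cutoff of the filter on low counts, and INHBE passed only through the TPBC-PEG libraries. The levels were 0.261, 0.388 and 0.378 CPM with PBS and 0.874, 1.78 and 1.94 CPM with TPBC-PEG, with no overlap. The lowest TPBC-PEG library held less than its partners, and the coefficient of variation between TPBC-PEG libraries was 37.6%, the largest of the tested members. Its log2 fold change was 2.14 ± 0.42 (adjusted p = 5.01e-05), the second largest among the members and rank 18 among all rises, and its SE was the largest of the members.

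ADM2 (adrenomedullin 2 or intermedin, ENSG00000128165, chromosome 22, 50481556 to 50486440, plus strand) encodes a vasodilator peptide of the calcitonin family. It was at 4.07, 4.65 and 6.24 CPM with PBS and at 14.2, 13.5 and 14.5 CPM with TPBC-PEG. The TPBC-PEG libraries were close to each other, with a coefficient of variation of 3.78%, while the PBS libraries varied by 22.6%. Its group mean went up from 4.99 ± 1.13 to 14.1 ± 0.532 CPM, and the fitted log2 fold change was 1.51 ± 0.13 (adjusted p = 1.63e-13).

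ADM (adrenomedullin, ENSG00000148926, chromosome 11, 10304680 to 10307397, plus strand) encodes the paralogous peptide, which widens vessels and is a well known gene of hypoxia. It was at 53.7, 55.2 and 53.3 CPM with PBS and at 45.2, 49.1 and 48.9 CPM with TPBC-PEG, with each TPBC-PEG library below each PBS library. The mean of ADM dropped from 54.1 ± 1.02 to 47.7 ± 2.16 CPM, with a log2 ratio of TPBC-PEG to PBS of -0.18 ± 0.058 (adjusted p = 0.0114). This small change lost its call without TPBC-PEG replicate 1 (log2 fold change -0.14, adjusted p = 0.103) and with scaling by library size alone (-0.14, adjusted p = 0.0637). Per kilobase of exon, the ratio of ADM2 to ADM was 0.0587 ± 0.0138 with PBS and 0.188 ± 0.0123 with TPBC-PEG, higher in each TPBC-PEG library than in any PBS library (exact permutation test, two-sided, p = 0.1, the smallest that 3 against 3 libraries can give).

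VEGFA (vascular endothelial growth factor A, ENSG00000112715, chromosome 6, 43770184 to 43786487, plus strand) drives the growth of blood vessels and is a target of both the hypoxia-inducible factors and ATF4. Its levels were 79.4, 85.4 and 80.8 CPM with PBS and 154, 165 and 145 CPM with TPBC-PEG. The groups were far apart compared with the spread inside them. Mean VEGFA RNA was 81.8 ± 3.15 CPM with PBS and 154.7 ± 9.99 CPM with TPBC-PEG, and the fitted log2 fold change was 0.92 ± 0.047 (adjusted p = 2.82e-21). With 2311 to 3420 counts in the TPBC-PEG libraries it was measured far more deeply than INHBE, and its SE was smaller. On the opposite strand another gene overlaps 1.30% of its exon bases.

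The stanniocalcins are secreted glycoproteins first known as calcium and phosphate regulators, and STC2 is a recognised gene of ER stress. STC2 (ENSG00000113739, chromosome 5, 173314713 to 173329503, minus strand) was at 129, 129.7 and 131 CPM with PBS and at 148, 168 and 155 CPM with TPBC-PEG. All 3 TPBC-PEG libraries were above all PBS libraries, which lay very close together. The group means were 130.03 ± 1.13 and 156.7 ± 10.3 CPM, and the fitted log2 fold change was 0.27 ± 0.044 (adjusted p = 1.9e-06).

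STC1 (ENSG00000159167, chromosome 8, 23841915 to 23854807, minus strand), its paralog and a gene of hypoxia, was at 16.8, 18.3 and 22.6 CPM with PBS and at 20.2, 24.9 and 22.3 CPM with TPBC-PEG. PBS replicate 3 was above 2 of the TPBC-PEG libraries, so the groups overlapped. Its log2 fold change of 0.23 ± 0.094 did not pass the test (adjusted p = 0.0572). The gene passed without PBS replicate 3 (0.35, adjusted p = 0.00631) and without TPBC-PEG replicate 1 (0.30, adjusted p = 0.0204). The ratio of STC2 to STC1 per kilobase of exon was 4.64 ± 0.639 with PBS and 4.74 ± 0.192 with TPBC-PEG (exact permutation test, two-sided, p = 0.9).

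ANGPTL4 (angiopoietin-like 4, ENSG00000167772, chromosome 19, 8363289 to 8374373, plus strand) inhibits lipoprotein lipase. It was at 5.37, 5.93 and 5.61 CPM with PBS and at 5.14, 6.07 and 5.52 CPM with TPBC-PEG. The highest and the lowest of the 6 libraries were both TPBC-PEG libraries. Its log2 fold change was -0.013 ± 0.15 (adjusted p = 0.96), with a 95% interval from -0.31 to 0.28, which does not reach the size of the change in GDF15, INHBE, ADM2 or VEGFA. Its sign turned between processing settings (-0.084 to 0.053), with no call in any of them.

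FGF21 (ENSG00000105550, chromosome 19, 48755559 to 48758333, plus strand), the starvation hormone of the liver, had 0 counts in the 3 PBS libraries and 0, 1 and 0 counts in the TPBC-PEG libraries. It failed the filter on low counts and was not tested. A count of 0 allows up to 3 counts, which is 0.145 to 0.189 CPM across the libraries, for counting error only. A change below that level was not detectable at this depth.

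A stricter test asked which genes changed by more than 1.5-fold (glmTreat). It called 4 members higher, GDF15 (adjusted p = 3.95e-18), VEGFA (8.59e-08), ADM2 (9.93e-08) and INHBE (0.00717), where 0.827% of all tested genes were called higher. Of these, INHBE had passed the filter only through the TPBC-PEG libraries. STC2 and ADM, whose changes were smaller, did not pass it.

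**Figure D3:**
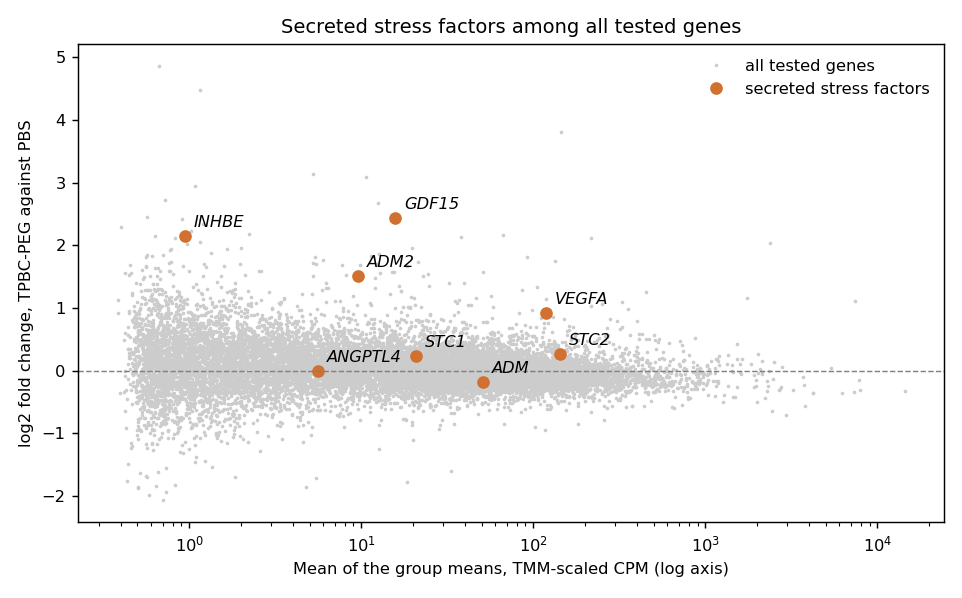
Mean of the group means (TMM-scaled CPM, log axis) against log2 fold change, TPBC-PEG against PBS, for all 15846 tested genes. The 8 tested members are named. GDF15 and INHBE lie at the upper edge of the cloud at their levels, and ANGPTL4, ADM, STC1 and STC2 lie within it.

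Levels of different genes were compared per kilobase of exon. With PBS the members stood in the order STC2 (21.2 CPM per kilobase), ADM (19.9), VEGFA (5.67), STC1 (4.64), GDF15 (2.34), ANGPTL4 (2.27), ADM2 (1.17) and INHBE (0.114). The libraries of GDF15 and ANGPTL4 overlapped, so their order was not resolved. With TPBC-PEG, GDF15 stood at 12.7 CPM per kilobase, above VEGFA (10.7), STC1 (5.41) and ANGPTL4 (2.25), and below STC2 (25.6) and ADM (17.6). The place of VEGFA depends on the length used: its exons together span 14431 bases, and its principal transcript 1199 bases. Counts are per gene and not per transcript, so division by this short length can overstate the level of VEGFA. The principal transcript length was added after the data were seen. Per kilobase of principal transcript VEGFA led with 68.3 CPM with PBS and 129 CPM with TPBC-PEG, and GDF15 then reached 22.1 CPM per kilobase with TPBC-PEG, where its libraries overlapped those of ADM (25.3). The order of STC2 and ADM with PBS also turned with the length: by principal transcript ADM (28.6) stood above STC2 (24.3), without overlap. By this length the libraries of STC1 and GDF15 overlapped with PBS, and those of ADM2 and ANGPTL4 with TPBC-PEG.

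**Figure D4:**
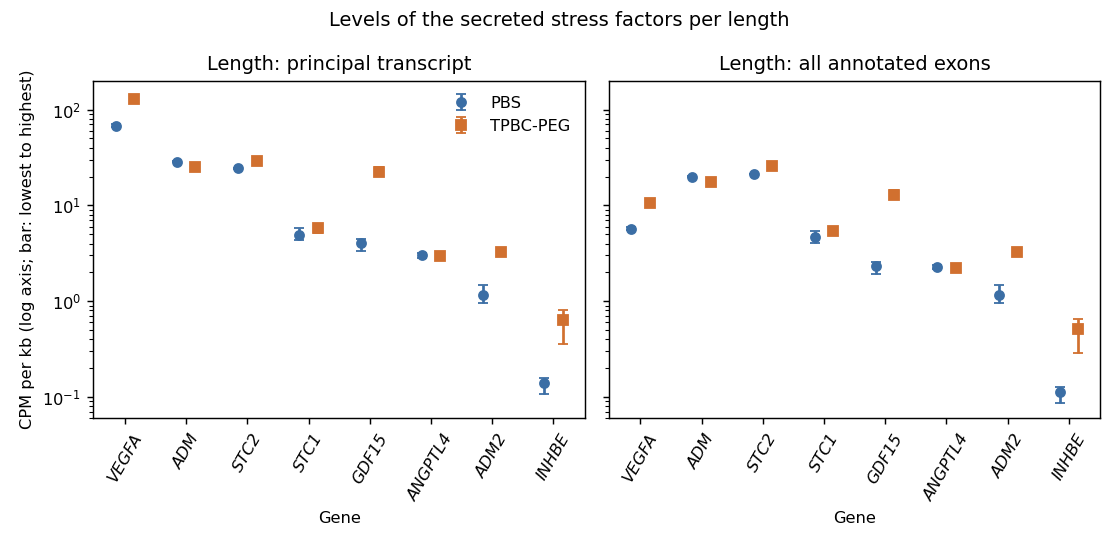
Level of each tested member in the PBS and TPBC-PEG libraries (CPM per kilobase, log scale). The left panel uses the principal transcript length and the right panel all annotated exons. Points are group means, and bars run from the lowest to the highest of the 3 libraries. Per kilobase of all annotated exons, GDF15 moves from 2.34 beside ANGPTL4 to 12.7 above VEGFA. Per kilobase of principal transcript VEGFA is the highest in both groups. INHBE is the lowest in both groups by either length.

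The members were compared by their profile over the 6 libraries, as the root mean square difference of log2 CPM after centring each gene on its mean; this is a description over 6 libraries that share the treatment. Among the members ADM and ANGPTL4 were closest (0.096), then STC1 and STC2 (0.12). Over the 14238 other tested genes whose mean reached 1 CPM, the profiles most like GDF15 were those of PTGS2 (0.15), the cyclooxygenase of prostaglandin synthesis, SLC7A11 (0.17), the cystine importer, and DDIT4 (0.19), an inhibitor of mTORC1. The profile of VEGFA was closest to SEC24D (0.023), a coat protein of ER export vesicles, then INSIG1 (0.048), which holds back sterol synthesis, and FRAT1 (0.051). For ADM2 the nearest was TVP23C (0.10), for INHBE UNC5B (0.26), for STC2 CCDC174 (0.014) and for ADM WDR46 (0.016). The smallest distances were those of members that changed little.

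Of the 20 receptors listed for these factors, 16 were tested, 2 rose and 3 fell, beside 16.2% and 16.9% of all tested genes, and the median on the log2 scale was 0.00064. NRP1, a co-receptor of VEGFA, rose from 121.8 ± 7.47 to 157.3 ± 5.23 CPM (log2 fold change 0.37 ± 0.044). ACVR2B, a type II activin receptor, rose by 0.37 ± 0.073. FLT1, which binds VEGFA, fell from 24.0 ± 1.52 to 17.2 ± 0.856 CPM (-0.48 ± 0.083), while KDR, the main signalling receptor of VEGFA, was at 0.711 and 0.698 CPM and was not called. FGFR4 fell by 0.41 on the log2 scale, and lost its call without TPBC-PEG replicate 2 (-0.27, adjusted p = 0.0668). FGFR3 had a log2 fold change of -0.48 (adjusted p = 0.0347) and lost its call without PBS replicate 1 (adjusted p = 0.0514) or 3 (0.113) or TPBC-PEG replicate 1 (0.124) or 3 (0.112). GFRAL and KLB, which GDF15 and FGF21 need for their signals, had 1 count each over all 6 libraries, too few to test. CALCRL, the receptor shared by ADM and ADM2, had 45 counts in all and also failed the filter. It was at 0.0522, 0.277 and 0.378 CPM with PBS and at 0.514, 0.482 and 0.815 CPM with TPBC-PEG, each TPBC-PEG library above each PBS library, with no test. RET, the signalling partner of GFRAL, was at 0.822 and 0.709 CPM with no call.

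Among proteins that process, bind or are inhibited by the members, 14 were listed and 12 tested. Of these 12, 4 rose and 2 fell, beside 16.2% and 16.9% of all tested genes. Their median on the log2 scale was 0.046. PAPPA, a protease that STC1 and STC2 inhibit, rose from 7.13 ± 0.145 to 11.9 ± 1.14 CPM (0.74 ± 0.12), with an antisense gene over 21.2% of its exon bases. PAPPA2, its relative, rose by 1.33 ± 0.38 from 0.610 CPM, and lost its call without PBS replicate 2 (0.98, adjusted p = 0.0601). LIPG, an endothelial lipase, rose by 0.60 and the proprotein convertase PCSK6, with other genes over 20.0% of its exon bases, by 0.39. Small falls were also called for FURIN (-0.19) and CPE (-0.24), a convertase and a carboxypeptidase of prohormones. FURIN lost its call without PBS replicate 1 (adjusted p = 0.0645) or 2 (0.0772) or TPBC-PEG replicate 1 (0.0891) or 3 (0.0955), and CPE without PBS replicate 3 (adjusted p = 0.0994) or TPBC-PEG replicate 1 (0.0525) or 3 (0.0568). PAM, which amidates the adrenomedullin peptides, was at 160.9 and 158.7 CPM and was not called.

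Of 36 relatives of the members in the same gene families, 16 were tested, and 7 had no count in any library. Of the 16 tested, 4 rose and 3 fell, beside 16.2% and 16.9% of all tested genes. Their median on the log2 scale was 0.23. FGF2, a secreted growth factor, rose from 56.6 to 72.1 CPM (0.35 ± 0.053), and CALCB, which encodes a calcitonin-family peptide, rose by 1.68 ± 0.48 from 0.260 CPM (adjusted p = 0.00524). FGF1 fell from 6.69 to 3.62 CPM (-0.89 ± 0.16), PGF, the placental growth factor, from 18.5 CPM (-0.52 ± 0.11), and GDF11 from 27.5 to 21.1 CPM (-0.38). INHBC, a neighbour and relative of INHBE, was at 0.312 and 0.678 CPM and did not pass the test (1.10 ± 0.51, adjusted p = 0.0928), although it did without PBS replicate 1 (1.91, adjusted p = 0.0238). VEGFC (0.31, adjusted p = 0.0435) lost its call without any single one of PBS replicate 1 (adjusted p = 0.0862) or 2 (0.149) or TPBC-PEG replicate 1 (0.0600), 2 (0.114) or 3 (0.108). INHBA (0.25, adjusted p = 0.0222) lost its call without PBS replicate 2 (adjusted p = 0.0992) or 3 (0.153) or TPBC-PEG replicate 2 (0.223).

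Of 20 transcription factors known to act on these genes, 18 were tested. Of these 18, 9 rose and 2 fell, beside 16.2% and 16.9% of all tested genes. Their median on the log2 scale was 0.25. DDIT3 rose from 3.43 to 21.7 CPM (2.67), with other genes over 39.6% of its exon bases, and ATF4 from 442.3 to 627.8 CPM (0.51). ATF3, another stress-induced factor of this network, rose from 3.72 to 7.37 CPM (0.98), and XBP1, a factor of the ER stress response, rose by 0.45. The hypoxia-inducible factors differed: HIF1A was at 326.8 and 323.4 CPM (-0.015, adjusted p = 0.80), while EPAS1, which encodes HIF-2α, rose from 72.9 to 117.9 CPM (0.69). Of the PPAR receptors, PPARA rose from 10.3 to 15.9 CPM and PPARG from 18.2 to 27.3 CPM, while PPARD fell from 40.9 to 31.5 CPM. CREB3L1 (0.49, adjusted p = 0.0469) lost its call without PBS replicate 1 (adjusted p = 0.156) or 3 (0.106) or TPBC-PEG replicate 1 (0.0772) or 2 (0.295). CREB3L3, a liver factor that acts on FGF21, had no count in any library.

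The other known targets of the same factors moved unevenly, where 16.2% of all tested genes rose and 16.9% fell. All but 1 of the 21 genes of the ATF4 list rose, and the list's median change on the log2 scale was 1.01, as did all but 1 of the 18 genes of the ATF6 and XBP1 list, with a median of 0.81. In the first, NUPR1 (2.33 ± 0.38), DDIT4 (2.14, with an antisense gene over 41.2% of its exon bases) and SLC7A11 (2.11) rose most, and ATF5 was not called. NUPR1 was scarce, at 0.397 CPM with PBS and 1.99 CPM with TPBC-PEG, and passed the filter on low counts only through the TPBC-PEG libraries. In the second, the ER chaperone gene HSPA5 (2.04), HERPUD1 (1.75), which acts in the removal of misfolded ER proteins, and DNAJB9 (1.57), a co-chaperone, rose most. Both lists were drawn up with earlier results of these libraries known, so their direction is not independent evidence.

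The list of hypoxia targets, to which VEGFA, ADM, STC1 and ANGPTL4 are related in regulation, was mixed. Of its 22 tested genes, 9 rose and 5 fell, beside 16.2% and 16.9% of all tested genes. The median on the log2 scale was 0.16. NDRG1 rose from 23.4 to 51.0 CPM (1.12), LOX, which crosslinks collagen, from 79.7 to 142.3 CPM (0.84), and the glucose transporter SLC2A3 rose by 0.62. LDHA, the lactate dehydrogenase, fell from 1481 to 1049 CPM (-0.50), and PFKFB3, a regulator of glycolysis, fell by 0.29 and the carbonic anhydrase CA12 by 0.28 on the log2 scale. CA9, a defining gene of hypoxia, had 4 counts over all libraries. Of 11 tested PPAR targets 3 rose and 2 fell, beside the same shares of all tested genes, with a median of 0.012. PDK4, which restrains glucose oxidation, rose by 1.59 from 0.375 CPM, and the lipid droplet gene PLIN2 rose by 0.64. Small log2 changes were also called in CPT1A, SLC25A20 and ACAA2. CPT1A (0.14) lost its call without PBS replicate 1 (adjusted p = 0.0995) or 2 (0.125) or TPBC-PEG replicate 2 (0.103) or 3 (0.26). SLC25A20 (-0.27) lost it without TPBC-PEG replicate 1 (adjusted p = 0.0973) or 3 (0.0647), and ACAA2 (-0.16) without PBS replicate 3 (adjusted p = 0.182) or TPBC-PEG replicate 2 (0.11). Of 19 p53 targets 7 rose and 2 fell, beside the same shares of all tested genes, with a median of 0.11. TP53INP1 rose by 1.28 and BBC3, which encodes the pro-apoptotic protein PUMA, by 1.15. XPC, with antisense genes over 30.4% of its exon bases, rose by 0.39, while BAX fell by 0.28 and AEN by 0.19.

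**Figure D5:**
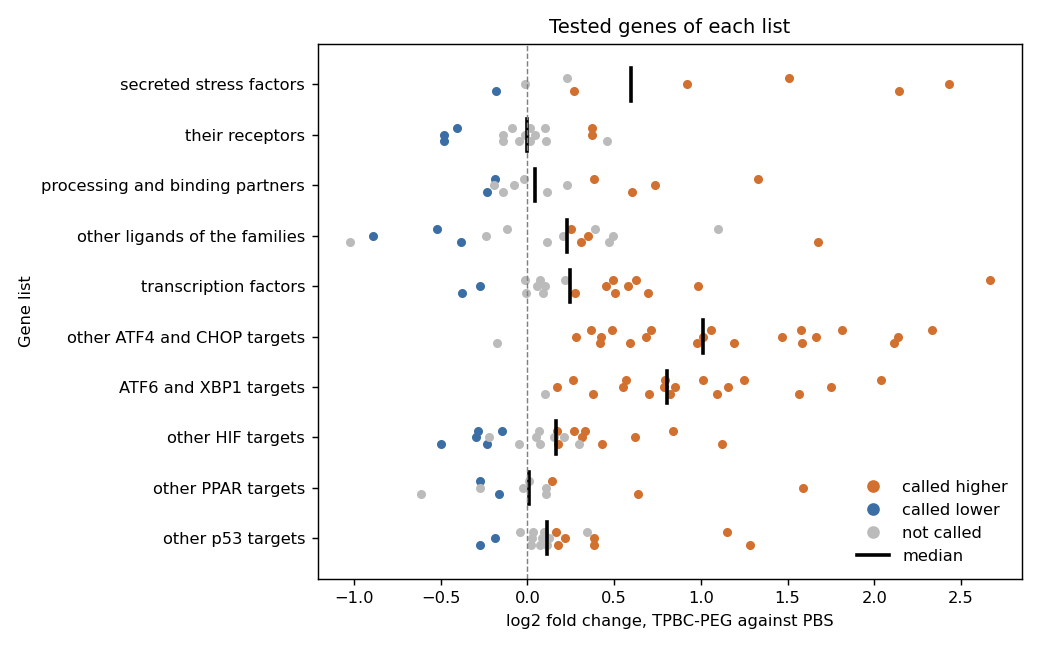
Log2 fold change, TPBC-PEG against PBS, of the tested genes of each list, 1 point per gene, with the list's median as a bar; colours mark genes called higher, called lower or not called. The ATF4 list and the ATF6 and XBP1 list lie almost wholly above 0, with medians of 1.01 and 0.81, and the hypoxia, PPAR and p53 lists lie on both sides.

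Library totals ran from 15726323 to 20486584 counts. The share of counts from mitochondrially encoded mRNA was 5.42 to 6.32% with PBS and 4.75 to 4.92% with TPBC-PEG, so it moved with the groups, and its part in the results was not tested. The mesenchymal markers (8 listed, 6 tested) summed to 3265 to 3319 CPM with PBS and to 2875 to 3001 CPM with TPBC-PEG: VIM, FN1, SPARC and COL1A1 fell, RUNX2 rose and CDH2 was not called, while COL1A2 and THY1, with 6 and 11 counts, were next to absent. Their part in the members' results was not tested. Markers of the liver and fat cells known for some of these hormones, and of leukocytes, were near 0. Hepatocyte markers summed to 0.946 to 1.27 CPM with PBS and to 1.00 to 1.28 CPM with TPBC-PEG, with TTR and FGB at 0. Adipocyte markers summed to 1.44 to 1.64 and to 0.874 to 1.30 CPM, with ADIPOQ and LEP at 0. Leukocyte markers summed to 0.820 to 1.22 and to 0.308 to 1.21 CPM. Endothelial and epithelial markers were not all near 0. Endothelial markers summed to 68.0 to 74.7 and to 69.8 to 76.6 CPM, nearly all of it TIE1. Epithelial markers summed to 15.6 to 17.8 and to 17.2 to 18.6 CPM, nearly all of it EPCAM, with KRT14 at 0. ESRP1 was called higher by 2.15 ± 0.48 on the log2 scale but was scarce, at 0.232 CPM with PBS and 1.03 CPM with TPBC-PEG. It passed the filter on low counts only through the TPBC-PEG libraries.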

How the data were processed

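RNA-seq of 3 PBS and 3 TPBC-PEG libraries of 143B cells was deposited by the authors as 1 table of raw read counts per gene; HISAT2 and the build GRCh38 are named in the submitters' processing notes. The sources used here give no counting program, annotation or strand setting, so where strand was ignored, reads of overlapping opposite genes cannot be told apart.

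Tests on the deposited counts used edgeR 4.0.16 (R 4.3.3): genes kept by filterByExpr (minimum count 10, total 15), TMM scaling, and its quasi-likelihood test (robust glmQLFit) with the group as the only term. The filter keeps a gene that reaches its cutoff in as many libraries as a group holds. Scarce genes such as INHBE passed only through the group where they were high. Genes were called at a Benjamini-Hochberg adjusted p under 0.05 over all 15846 tested genes. Standard errors came from the F statistic. limma 3.58.1 and DESeq2 1.42.0 served as alternatives. Exon lengths, positions and overlaps came from GENCODE 29 on GRCh38. The fit was tested on simulated data. Counting intervals and floors cover counting error only, since without molecular identifiers reads can be copies of 1 molecule.

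Members and lists were chosen with earlier results of these data known. The text may name all members and any tested gene of the receptor, partner, relative and transcription factor lists. From each other list it names up to 3 called genes per direction with the largest change among those whose mean reached 1 CPM in either group, and for each member the 3 most like profiles. Genes at few counts or at 0 were named after their values were seen.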

Additional observations from a re-analysis of the deposited data

How the results depend on the processing

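The 19 other settings comprised other scalings, filters and tests, removal of trends with GC content or expression level, a replicate block, and each library left out in turn. GDF15, VEGFA, ADM2 and STC2 were called higher under all of them except that STC2 was not called against a 1.5-fold change. INHBE was called wherever it was tested; requiring 1 CPM in 3 libraries removed it, which left 4 members higher. The number of members called higher was 6 with library size alone, limma-voom, protein-coding genes alone and the replicate block, where STC1 passed, and 5 to 6 with a library left out. The number called lower fell from 1 to 0 with library size alone and in the test against a 1.5-fold change, and was 0 to 1 with a library left out; the cause was not tested. ANGPTL4 was never called and its sign turned (-0.084 to 0.053). Among the genes named here from the other lists, calls were lost not only with a library left out. The test against a 1.5-fold change is left aside here. The DESeq2 Wald test lost those of VEGFC, CREB3L1, FGFR3, FURIN, INHBA and CPT1A. Removing the GC trend lost those of VEGFC, FGFR3, FURIN, INHBA and CPT1A. Library size alone lost those of FGFR3, FURIN, CPE and ACAA2. Dropping the filter lost those of FGFR3, VEGFC and CREB3L1, and removing the expression-level trend those of VEGFC and CREB3L1. The call of CREB3L1 was also lost with limma-voom and with non-robust estimation.

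Over all genes, leaving out a library gave 4128 to 4832 calls (1987 to 2347 higher, 2141 to 2515 lower), and the test against a 1.5-fold change gave 145 (131 higher, 14 lower), since it asks for a larger change. Scaling by library size alone gave 3213 higher and 1971 lower, 62.0% higher against 49.0% with TMM. Replicate numbers did not pair the libraries: same-numbered deviations correlated at 0.00336, 0.0646 and -0.0154, and 2 of 6 libraries correlated best with their own number. The replicate block gave 2531 genes higher and 2644 lower, and 6 members higher and 1 lower. With 5 to 37 counts per library INHBE, and with 0 to 1 FGF21, are limited by depth.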

Other observations

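The genes within 100 kb of the members on GRCh38 were also read; those named here were chosen after their values were seen, and no explanation is attached to them. FUT1, which encodes a fucosyltransferase, lies 0.169 kb from FGF21 and had a log2 fold change of 0.87 (called higher), while FGF21 itself had 1 count. INHBE lies 1.5 kb from INHBC and 57.3 kb from DDIT3 (2.67), and 3 of its 7 tested neighbours were called higher (16.2% of all tested genes were), MARS1 (0.40) and MBD6 (0.21) being the others. MARS1 and MBD6 are among the genes whose exons overlap those of DDIT3, and the strand setting is not known. Reads of these 3 genes may therefore not be separate. Near GDF15, PGPEP1 (0.80) and JUND (1.04), a subunit of AP-1, were called higher and SSBP4 (-0.31) and LSM4 (-0.22) lower. AMPD3, next to ADM, was called higher (0.27) where ADM was called lower. KLHDC7B, 59.5 kb from ADM2, rose from 0.0916 to 2.22 CPM (4.48 ± 0.49, adjusted p = 2.3e-10 by the edgeR quasi-likelihood test). Near ANGPTL4, 4 of 7 tested neighbours were called lower (16.9% of all tested genes were).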
